A study of Mus musculus with 12 samples.

Results

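The genes described are the 41 mouse genes for the Wnt ligands, the Frizzled receptors and the main families of secreted Wnt modulators, out of 21755 protein-coding genes on chromosomes 1 to 19 and X. They were chosen by name and family: 19 Wnt ligands, 10 Frizzled receptors (Fzd1 to Fzd10) and 12 secreted modulators (Sfrp1, Sfrp2, Sfrp4, Sfrp5, Dkk1, Dkk2, Dkk3, Rspo1 to Rspo4 and Wif1). Each was found as a single gene in the GENCODE annotation of GRCm38. H3K27me3, trimethylation of lysine 27 of histone H3, was measured by chromatin immunoprecipitation and sequencing (ChIP-seq) in iMEF cells, an immortalized line of mouse embryo fibroblasts. H3K27me3 was sequenced in 2 libraries per group, without treatment and after exposure to dTAG lasting 16 h, 24 h or 48 h. Input chromatin, which skips the immunoprecipitation, was sequenced in 2 libraries without treatment and 2 after 48 h. All groups, untreated cells included, carry the same genetic changes. Exon 4 of endogenous Ash2l is deleted through Cre-ER, and a lentiviral construct supplies human ASH2L, a core subunit of the H3K4 methyltransferases, joined to FKBP12F36V, through which dTAG directs it to degradation. Such cells were selected as individual clones, so that the libraries model a clonal fibroblast line.

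The values used here are a list of 101389 H3K27me3 sites found over all samples, with chromosome, start and end. It has no value for any library, so the depth obtained in each library cannot be read from it (the methods give a planned minimum of reads per ChIP sample), no replicate error can be given, and the difference between untreated and treated cells was not tested. The study also lists separately the sites it called changed at each time point, and that list was not used here. The sample titles mark these libraries as the study's second H3K27me3 experiment. The first experiment has its own list of sites, which was not used here either. What can be read from the list used here is where the mark was called in at least some of the samples. The description below therefore sets the genes beside each other and beside all protein-coding genes, without a test. The list holds no expression values, so the fibroblast label could not be checked against marker genes.

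Wnt proteins are secreted, lipid-modified ligands that bind Frizzled receptors on the cell surface together with co-receptors. In the canonical branch this stabilizes beta-catenin, which enters the nucleus and acts with TCF/LEF factors. Secreted antagonists bind either the ligand (the SFRP proteins and WIF1) or the LRP co-receptors (DKK1 and DKK2), whereas R-spondins raise the number of receptors on the surface by acting on the ubiquitin ligases that remove them. H3K27me3 is placed by Polycomb repressive complex 2 and is often found as broad domains over the CpG-rich promoters of silent developmental genes.

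CpG-rich start sites occurred among the genes with and without a site. A CpG island lay within 1 kb of a transcription start site (TSS) of 37 of the 41 genes, against 58.5% of all protein-coding genes. Wnt8a, Wnt8b, Wnt16 and Dkk1 had none. To show this at the level of sequence, the 250 bases before the TSS are printed for 5 genes, from RefSeq on GRCm38.p6, 5′ to 3′, with CG dinucleotides in capitals. Wnt9b (chr11:103749822-103750071, minus strand) and Rspo1 (chr4:124986180-124986429, plus strand) are the ligand and the modulator with the widest site over a TSS among those with an entry outside annotated exons. Wnt10b (chr15:98778151-98778400, minus strand) and Fzd1 (chr5:4758217-4758466, minus strand) are the ligand and the receptor with an island, no site and the greatest distance from a site under the same condition. Wnt1 (chr15:98789607-98789856, plus strand), the neighbour of Wnt10b, was added after its values were seen.
Wnt9b: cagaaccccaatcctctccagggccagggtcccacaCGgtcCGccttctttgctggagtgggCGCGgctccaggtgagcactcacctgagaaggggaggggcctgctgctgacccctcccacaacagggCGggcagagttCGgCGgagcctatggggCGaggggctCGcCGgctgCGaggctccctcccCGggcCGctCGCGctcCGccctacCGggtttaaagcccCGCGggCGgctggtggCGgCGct
Wnt1: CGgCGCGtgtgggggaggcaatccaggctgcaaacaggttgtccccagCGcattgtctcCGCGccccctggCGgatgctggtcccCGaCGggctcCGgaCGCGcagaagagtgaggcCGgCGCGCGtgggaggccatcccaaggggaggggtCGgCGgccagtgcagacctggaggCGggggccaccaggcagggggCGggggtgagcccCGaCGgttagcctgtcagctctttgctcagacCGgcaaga
Wnt10b: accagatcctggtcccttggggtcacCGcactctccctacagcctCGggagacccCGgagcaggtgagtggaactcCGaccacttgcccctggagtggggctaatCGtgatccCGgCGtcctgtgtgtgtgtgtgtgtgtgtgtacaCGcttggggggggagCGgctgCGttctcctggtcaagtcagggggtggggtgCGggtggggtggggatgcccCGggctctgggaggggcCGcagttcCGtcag
Fzd1: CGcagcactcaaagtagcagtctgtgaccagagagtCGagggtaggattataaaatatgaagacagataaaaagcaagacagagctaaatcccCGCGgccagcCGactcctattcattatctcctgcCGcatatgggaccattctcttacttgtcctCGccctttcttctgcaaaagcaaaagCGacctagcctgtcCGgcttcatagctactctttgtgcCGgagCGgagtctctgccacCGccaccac
Rspo1: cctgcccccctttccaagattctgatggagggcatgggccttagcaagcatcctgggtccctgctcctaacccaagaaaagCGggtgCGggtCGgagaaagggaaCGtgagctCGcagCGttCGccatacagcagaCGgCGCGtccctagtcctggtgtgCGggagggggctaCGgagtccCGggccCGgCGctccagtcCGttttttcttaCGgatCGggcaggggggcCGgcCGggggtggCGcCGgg

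The stretches of Wnt9b, Rspo1 and Wnt1 lay wholly inside sites, and those of Wnt10b and Fzd1 held no base of a site. They contained 22 CG dinucleotides in Wnt9b, 22 in Rspo1 and 23 in Wnt1, against 14 in Wnt10b and 12 in Fzd1. Outside chromosome 18, an entry was found for 28 of the genes, and for Wnt5b and Wnt11, which have several, the one with the most CG was taken. These genes were split by whether a site lay within 1 kb of a TSS, not by whether the stretch itself lay in a site. The 24 with a site near a TSS had a median of 23.5 CG in the 250 bases (range 5 to 48). The 4 genes without one had 15.5 (range 12 to 32). The median over all 32851 promoters of the table was 6, and 92.1% of them held at least 1 CG on either strand, the motif being its own reverse complement. Among the genes without a site, the most CG-rich stretch was that of Fzd5 with 32 CG. It exceeded most stretches of the genes with a site, so that the ranges overlapped. The richest stretch of all, that of Wnt9a with 48 CG, held no base of a site, although the gene was counted as having one nearby. The same was true of the stretches of Fzd4 with 25 CG and Wnt16 with 9 CG.

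A site lay near the start of 29 of the 41 genes (70.7%), meaning that at least 1 base of it fell within 1 kb of any annotated TSS. The background among all protein-coding genes was 26.9%. The background was nearly the same for genes with a CpG island (26.6%) and without (27.3%), whereas 26 of the 37 genes with an island and 3 of the 4 without had a site here. By class, a site was found at 16 of 19 ligands, at 9 of 12 modulators and at 4 of 10 Frizzled receptors. In 24 of the 41 genes a TSS lay inside a site, beside 4650 of all 21755 protein-coding genes. The 24 were 15 ligands, 8 modulators and, among the 10 receptors, Fzd10. The other 12 genes had no site in the window and no covered base in the gene body.

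The distinction did not rest on the width of the window. The genes counted as having a site had a site no more than 391 bp from a TSS (Fzd3), and the nearest of those without was Wnt8a at 7910 bp. No gene lay in between.

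**Figure D1:**
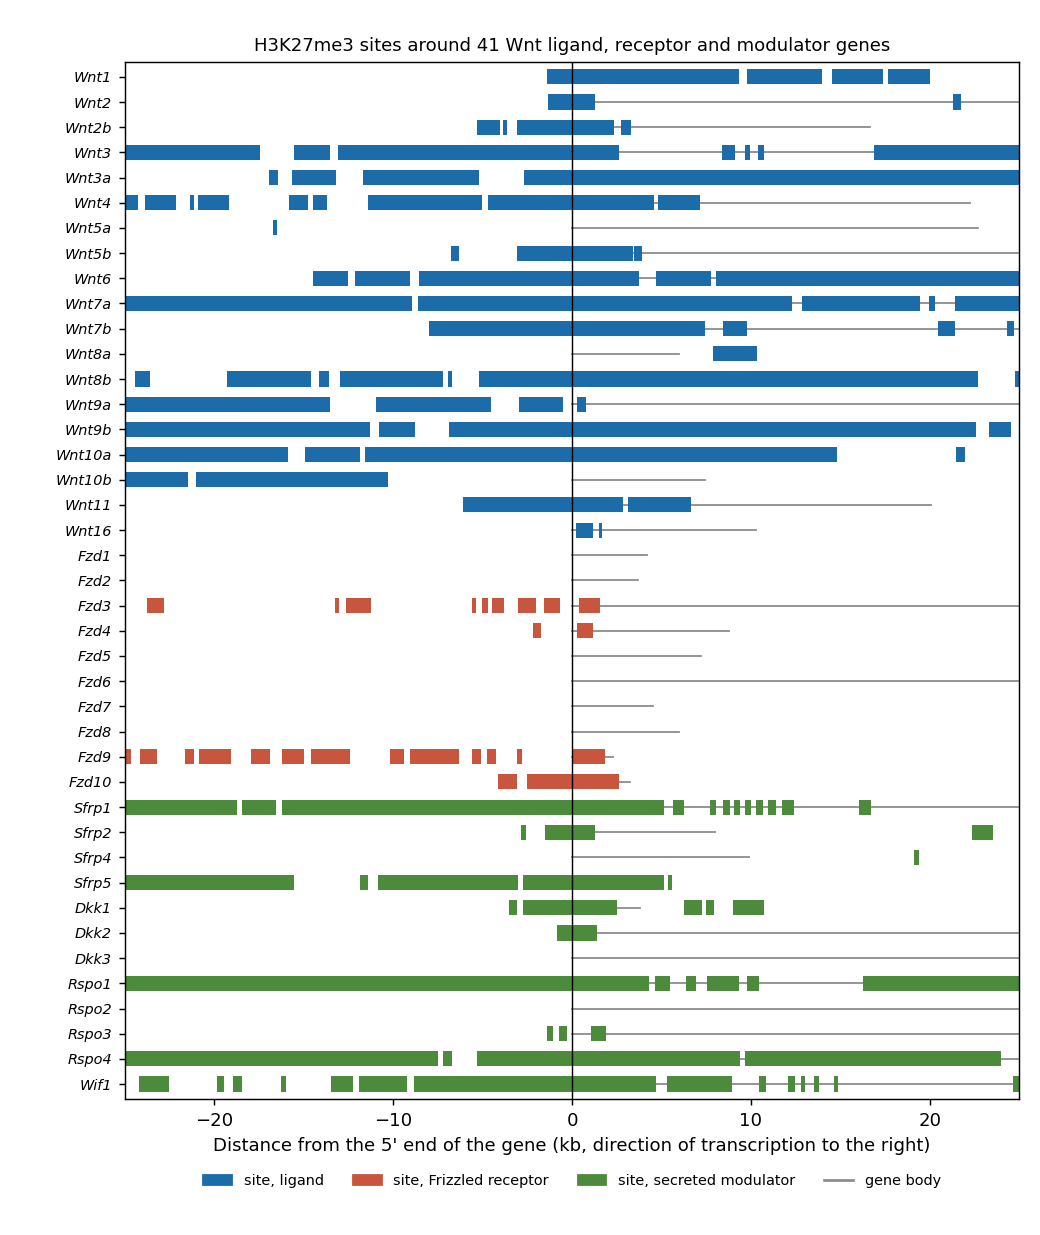
Map of H3K27me3 sites (coloured bars) from 25 kb before to 25 kb after the 5′ end of each of the 41 genes (rows), with transcription to the right and the gene body as a grey line. Sites cross the 5′ end in most ligand and modulator rows, whereas 6 of the 10 Frizzled rows hold no site at all.

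The sites near these genes were wide. A total of 35 sites lay within 1 kb of their TSSs, with a median width of 7876 bp (range 201 to 61757 bp). The 8407 sites near any protein-coding TSS had a median of 2482 bp, and the whole list one of 676 bp. A site of at least 10000 bp lay near a TSS of 13 genes, namely 9 ligands and 4 modulators. The background for such a site was 5.76% of protein-coding genes. None of the receptors had a site of this width near a TSS, and their widest was 5140 bp at Fzd10.

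Among the ligands, Wnt1, Wnt3a, Wnt8b, Wnt9b and Wnt10a had every base of the gene body covered, each by a single site. Wnt1, known for its role in the midbrain and hindbrain, lay within a site of 10736 bp (chr15:98788450-98799185). Wnt3a, which acts in the formation of the posterior body axis, lay within the widest site near any of the genes, of 61757 bp (chr11:59231654-59293410). Both sites contained coding exons, introns and untranslated regions, and they ran beyond both ends of the gene. Wnt8b, without a CpG island, lay within a site of 27849 bp (chr19:44488298-44516146). Wnt9b, needed in kidney development, lay within one of 29491 bp (chr11:103727210-103756700).

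Wnt6 and Wnt7a were covered almost as fully. At Wnt6, 90.6% of the gene body was covered, and its start lay in a site of 12316 bp (chr1:74763338-74775653). At Wnt7a, a ligand of limb and nervous system patterning, 88.2% was covered. Its 5′ end lay in a site of 20866 bp (chr6:91399087-91419952), and a second site of 50566 bp (chr6:91320562-91371127) lay over its 3′ part, near another annotated TSS. Together with Wnt3, at which 66.7% was covered and whose 5′ end lay in a site of 15347 bp (chr11:103761407-103776753), these were the 8 ligands with at least 50% of the body covered. The background for this share was 10.1% of protein-coding genes, and 15 of the 41 genes reached it. At least 90% was covered in 8 of the 41 genes, against a background of 4.23%.

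In the other 8 ligands with a site, the covered part lay mainly near the start of the gene. Wnt11 had 31.6% of the body covered by sites of 8897 bp (chr7:98829046-98837942) and 3517 bp (chr7:98838237-98841753). Wnt4, known from kidney and female reproductive tract development, had 31.1% covered, with a site of 9287 bp (chr4:137272768-137282054) over its first exon. Wnt7b had 25.02% covered, and its site of 15436 bp (chr15:85575047-85590482) also held a TSS of the neighbouring gene AU022754. The remaining ligands were covered to a smaller extent. Wnt2b had 17.6% covered, with a site of 5427 bp (chr3:104959549-104964975). Wnt2 had 5.25% covered, by a site of 2622 bp at the TSS (chr6:18029282-18031903) and further sites in the body. Wnt5b had 4.52% covered, with a site of 6479 bp at the most upstream TSS (chr6:119540924-119547402). For Wnt5b and Wnt11, as for Wnt7b, not every annotated TSS had a site: 2 of 4 in Wnt5b, 4 of 5 in Wnt11 and 5 of 6 in Wnt7b.

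Among the ligands with a site, Wnt16 and Wnt9a had the smallest widest site within 1 kb of a TSS. At Wnt16 sites of 931 bp (chr6:22288449-22289379) and 201 bp (chr6:22289710-22289910) covered 10.99% of the body, beginning 222 bp after the 5′ end. At Wnt9a sites of 2473 bp (chr11:59303941-59306413) and 495 bp (chr11:59307214-59307708) lay on either side of the 5′ end, which itself was not in a site, and 1.86% of the body was covered. The CpG islands at Wnt9a were covered to 36.5%, and those of the other 13 ligands with an island and a site wholly.

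The 3 ligands without a site were Wnt5a, Wnt8a and Wnt10b. Wnt5a, the best known ligand of beta-catenin-independent signalling and a gene active in many mesenchymal tissues, has 6 annotated TSSs, none with a site, and the nearest site was 16471 bp away. Within 50 kb on either side of its 5′ end, 0.269% of bases were covered, against 62.1% at Wnt3a. For Wnt10b, which is known to restrain adipocyte formation, the nearest site was 10300 bp away, and for Wnt8a 7910 bp. All of them were thus nearer to a site than any of the receptors without one.

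Of the ligand genes, 8 are arranged as 4 pairs of neighbours less than 100 kb apart, and 3 of the pairs had a site at both genes. From the start of Wnt6 to the end of Wnt10a (chr1:74771892-74804179), 96.1% of bases were covered by 3 sites. The widest of these, of 26370 bp (chr1:74779960-74806329), held TSSs of both genes, so that they are not separate observations. The span of Wnt9b and Wnt3 (chr11:103727364-103817957) was covered to 81.3% by 10 sites, and the gap between the genes to 90.1%. The span of Wnt3a and Wnt9a (chr11:59248033-59333552) was covered to 64.1%, nearly all of it outside the body of Wnt9a. The last pair, Wnt10b and Wnt1 (chr15:98770712-98793837), was covered to 23.3%. A single site reached into it, and it ended between the genes, leaving Wnt10b free while it held all of Wnt1. The genes point away from each other across 11706 bp of intergenic sequence, and their promoter stretches, printed above, both lie in that gap with opposite calls. Among the 11 ligands outside the pairs, 9 had a site.

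**Figure D2:**
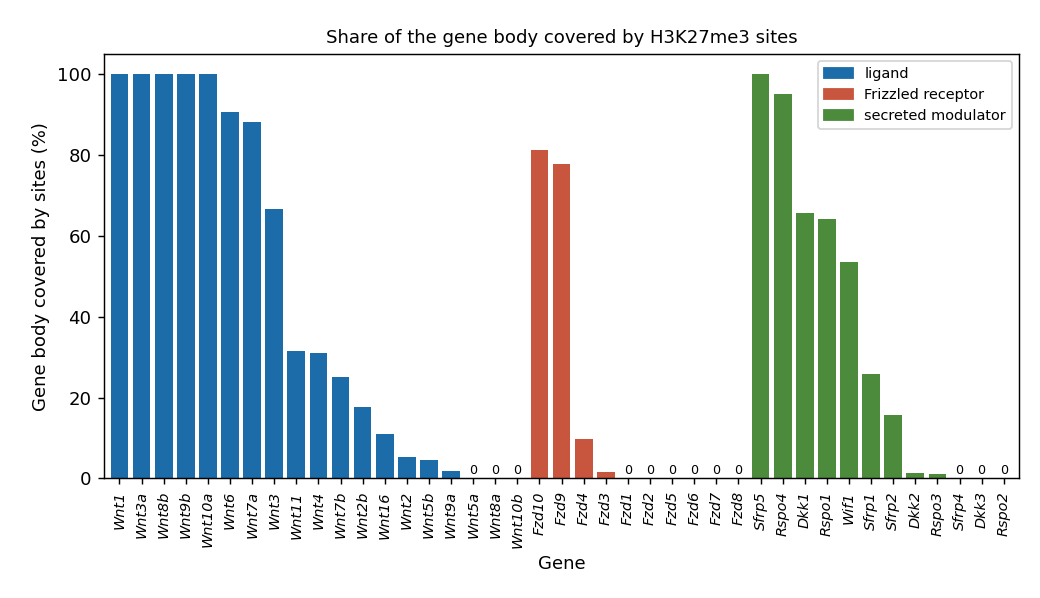
Share of the gene body covered by H3K27me3 sites (vertical axis, %) for each of the 41 genes, ordered within the classes, with a 0 where no base was covered. The values range from 0 to 100% for ligands and modulators and from 0 to 81.3% for Frizzled receptors.

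The Frizzled receptors, the seven-pass membrane proteins to which Wnt ligands bind, had a site in 4 of 10 genes, beside 26.6% of all protein-coding genes with a CpG island, which all 10 have within 1 kb of a TSS. At Fzd10 a site of 5140 bp (chr5:128598347-128603486) held the TSS and covered 81.3% of this short gene. At Fzd9 a site of 1781 bp (chr5:135249407-135251187) began 43 bp after the TSS and covered 77.7% of the body, nearly all of it coding sequence. Neither gene has an annotated intron, and the median length of the receptor genes was 5253 bp against 17414 bp over all protein-coding genes, so that a narrow site makes a large share of the body. Fzd4, known for its part in retinal vessel growth, had 9.82% covered by a site of 862 bp that began 306 bp after the TSS (chr7:89404661-89405522). Fzd3, which guides axon growth, had 1.70% covered by a site of 1190 bp (chr14:65260883-65262072), and a second one of 867 bp lay before the gene (chr14:65263140-65264006).

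In Fzd3, Fzd4 and Fzd9 the sites lay beside the TSS and not over it. The islands were covered to 29.6% in Fzd3, 19.2% in Fzd4 and 76.2% in Fzd9. Of the 26 genes of all classes with an island and a site, 21 had their islands covered wholly, and the other 5 were Wnt9a, these 3 receptors and Rspo3.

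Fzd1, Fzd2, Fzd5, Fzd6, Fzd7 and Fzd8 had no site. The nearest site was 40065 bp away for Fzd2, 40188 bp for Fzd5, 63959 bp for Fzd7 and 74320 bp for Fzd1. For Fzd6 it was 171502 bp and for Fzd8 280252 bp away. In Fzd1, Fzd6, Fzd7 and Fzd8 no base within 50 kb of the 5′ end was covered, which was otherwise seen in Dkk3 and Rspo2 only. Fzd6 is also the only one of the 41 genes that RefSeq places a second time on a patch sequence of the assembly. Of 257 protein-coding genes with such a copy on a correcting patch, 5 had a site, which is 1.95% beside 26.9% of all protein-coding genes. Whether the copy affected the call at Fzd6 was not tested, and 4 of the 9 receptors without such a copy had a site.

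The secreted modulators had a site in 9 of 12 genes. Among the SFRP proteins, which bind Wnt ligands through a Frizzled-like domain, Sfrp5 was covered wholly by a site of 7876 bp (chr19:42197121-42204996). Sfrp1 had 25.9% covered, and its TSS lay in a site of 21403 bp (chr8:23395269-23416671), of which 16233 bp lay before the gene. Sfrp2 had 15.8% covered by a site of 2756 bp (chr3:83764826-83767581). Sfrp4 had no site, and the nearest lay 17486 bp away.

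The R-spondins ranged from nearly full coverage to none. Rspo4, known from nail development, had 95.1% covered, with a site of 14704 bp at the TSS (chr2:151837636-151852339). Rspo1, known from ovary development, had 64.2% covered. Its site of 38436 bp (chr4:124952285-124990720) extended 34145 bp before the gene and also held a TSS of Gm12930, and a second site of 13093 bp lay over its 3′ end (chr4:125002700-125015792). At Rspo3 the site of 459 bp (chr10:29536157-29536615) ended 290 bp before the nearest TSS, and another site inside the gene covered 1.07% of the body. Rspo2, a limb and lung factor whose promoter the study examined, had no site, and the nearest lay 351897 bp away.

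Of the DKK proteins, Dkk1, an LRP-binding antagonist needed for head formation, had 65.7% covered by a site of 5249 bp (chr19:30547167-30552415) in the absence of an island. Dkk2 had 1.45% covered by a site of 2191 bp at its TSS (chr3:132084475-132086665). Dkk3, a related protein without a clear part in LRP binding, was the gene farthest from a site, at 707066 bp. Wif1, which binds Wnt ligands directly, had 53.5% covered by 25 sites, more than any other of the genes, including a site of 13534 bp at the TSS (chr10:121025141-121038674).

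By class, the median share of the gene body covered was 31.1% for ligands, 20.8% for modulators and 0 for receptors, and 15.8% for all 41 genes. The median over all protein-coding genes was also 0, since 69.4% of them had no covered base, against 12 of the 41 genes. Among the 29 genes with a site the median was 53.5%, compared with 29.3% for all protein-coding genes with one.

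The coverage extended to both sides of the 5′ end. In the 10 kb before it 55.5% of bases were covered in ligands, 45.1% in modulators and 11.7% in receptors. In the 10 kb after it the values were 55.7%, 39.0% and 6.48%. Over all protein-coding genes they were 14.3% before and 12.6% after the 5′ end. The highest coverage in a bin of 500 bp was 81.9% in ligands, between 500 and 1000 bp after the 5′ end. It was 40% in receptors in the same bin, and 70.2% in modulators directly before the 5′ end.

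**Figure D3:**
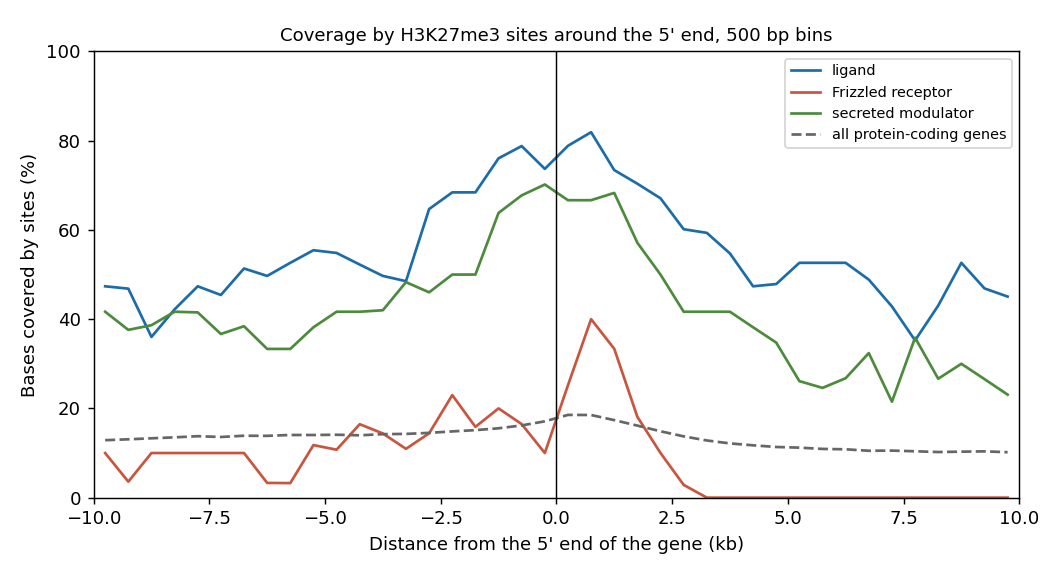
Share of bases covered by H3K27me3 sites (vertical axis, %) in bins of 500 bp from 10 kb before to 10 kb after the 5′ end, as means over the ligands, receptors and modulators and over all protein-coding genes (dashed). Ligands and modulators lie above the dashed line throughout, and the receptors lie above it in the bins from 0 to 2000 bp after the 5′ end and in some of the bins before it.

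Other parts of the pathway were counted in the same way. Of 44 further genes, 20 (45.5%) had a site. Among other secreted modulators these were Frzb, Dkkl1, Sost, Sostdc1, Apcdd1 and Draxin, that is 6 of 7, with Sost, an antagonist made in bone, covered wholly. Of 13 co-receptors, other receptors and their regulators, Lrp5, Ror2, Lgr5, Lgr6, Rnf43 and Kremen2 had a site. Of 13 cytoplasmic components, Axin2, Apc2, Nkd1 and Nkd2 had one, a share of 30.8% beside the background of 26.9%. Of 8 nuclear factors these were Tcf7, Lef1 and Pygo1, and of 3 genes of ligand secretion and deacylation it was Notum.

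**Figure D4:**
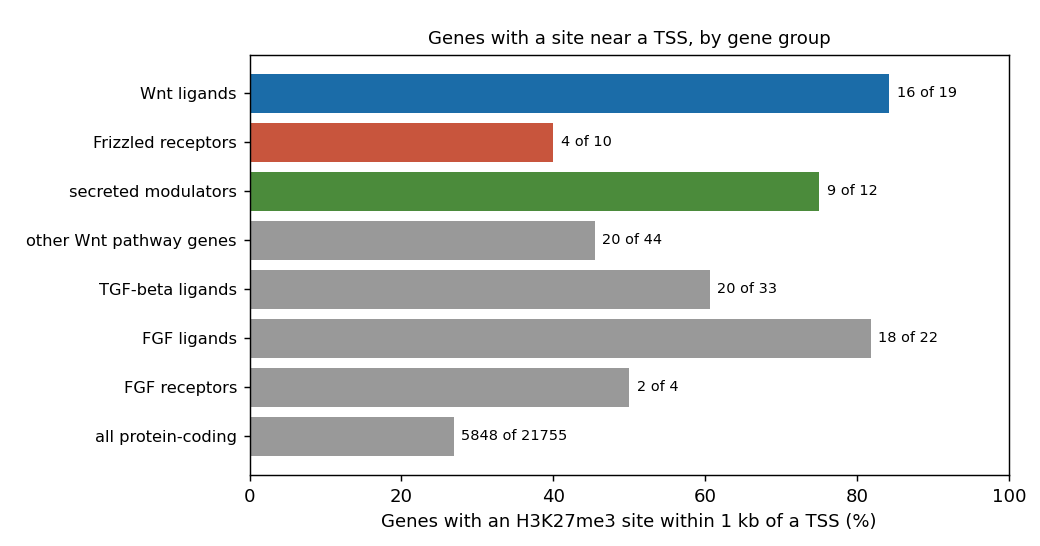
Share of genes with an H3K27me3 site within 1 kb of a TSS (horizontal axis, %) by gene group, with the counts at the bars. Wnt ligands stand at 16 of 19 and Frizzled receptors at 4 of 10, beside 5848 of 21755 protein-coding genes.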

How the data were processed

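H3K27me3 ChIP-seq was represented by 8 H3K27me3 and 4 input libraries of iMEF cells, grouped by the sample titles and records. According to the methods, the authors used Trim Galore for trimming, BWA for alignment to mm10 (GRCm38.p6), samtools for filtering, Picard for merging replicates and MACS for broad peaks. The submitters' processing notes name BWA, SAMtools, MACS2, deepTools and DESeq2. The versions of the aligner and peak caller, the cutoff of the peak calls and the rule for joining peaks of different samples were not given in the sources used here. The deposited list used here gives positions, with no count, score or signal, and holds 0 columns besides chromosome, start and end. The study's separate list of changed sites was not used here. A broad caller joins nearby stretches, which affects widths and covered shares.

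Starts were read as counted from 0, since the narrowest site was then 200 bp, and printed positions count from 1. Genes were those of GENCODE M21 on GRCm38, and overlaps were computed in Python 3.11.15 (numpy 2.4.6, pandas 2.3.3, numba 0.67.0, matplotlib 3.10.9). CpG islands were maximal-scoring segments of the repeat-masked sequence (17 for a CpG, -1 for another base) and had to reach 200 bp, 50% GC and an observed/expected CpG ratio of 0.6, which gave 16226 islands. Overlap and island code was tested on simulated data. Every gene of the 3 classes was named, with the sites within 1 kb of a TSS or the distance to the nearest site. Sequences were printed for 250 bases before the RefSeq TSS, where this stretch held no annotated exon, a shorter window than the design named. Genes on chromosome 18 were left out of the sequences and of their CG counts. The genes and lists were chosen with earlier results of these data known. The comparison of time points in the design needed values by library and was not run.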

Additional observations from a re-analysis of the deposited data

How the results depend on the processing

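The counts were recomputed with windows of 500 bp, 2 kb and 3 kb, with sites of at least 500 or 1000 bp, after merging sites separated by less than 3000 bp, with at least 200 bp of overlap, with TSSs of protein-coding transcripts and with the 5′ end of the gene alone. Each count of genes with a site stayed within 1.5 times its value. The 41 genes gave 29 with a site in every setting except for sites of at least 500 bp (28, without Rspo3) and of at least 1000 bp (26, without Wnt16, Fzd4 and Rspo3). Islands of the unmasked sequence left the number of genes with an island at 37. Leaving out the receptor with a patch copy was added after seeing the data and left 4 receptors with a site.

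The median body share depended on the setting. With sites of at least 1000 bp it was 13.6% for the 41 genes and 14.7% for modulators. With sites of at least 500 bp it was 17.97% for modulators. Merging gave 33.1% for ligands and 28.3% for modulators. Adding 5 kb before the gene gave 23.3% for the 41 genes, 42.7% for ligands and 28.9% for modulators. The receptor median stayed at 0 in each of these settings. No paired analysis was possible because the list has no value for any library, and for the same reason no library could be left out. The depth obtained in each library, which limits the calls, cannot be read from the list, so that a gene without a site is a gene at which none was called.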

Other observations

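Other families of secreted ligands were scored in the same way. Near a TSS, by the same 1 kb window, 18 of 22 FGF ligands (81.8%) had a site, beside 26.9% of all protein-coding genes. Fgf3, Fgf4, Fgf8 and Fgf15 were covered over the whole gene body, Fgf3 and Fgf4 by the same site of 60096 bp (chr7:144809957-144870052), so that these neighbours are not separate observations. Of 33 ligands of the TGF-beta superfamily, 20 (60.6%) had a site, with Gdf7 covered wholly and Bmp2, a bone and heart morphogen, to 82.6%. The median share of the body covered was 13.8% for FGF ligands and 10.6% for the TGF-beta superfamily. Of the 4 FGF receptors, Fgfr3 and Fgfr4 had a site. These groups differ in size and were not tested against the Wnt genes.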
